A study of Oikopleura dioica with 14 samples.

Results

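The change in gene expression between 4 and 6 hours post fertilization (hpf) was measured in wild-type Oikopleura dioica, from 4 of the 14 libraries of the study. The libraries were chosen by their labels alone, as the 2 wild-type pools at 6 hpf and the 2 wild-type pools at 4 hpf. The wild-type animals were Pax37b+/+ offspring of Pax37b+/- parents, so they were siblings of mutants raised from single crosses, and no other allele or agent is named in the labels. Whole animals were genotyped one by one on a part of their lysate, and those of one genotype were pooled for RNA extraction. The labels call the pools biological replicates without saying whether each had its own cross, and give neither the number of animals per pool nor the rearing temperature. The p-values below therefore measure the spread between these pools. Libraries of polyadenylated RNA were made with a kit meant for very small samples. For comparison, 3 Pax37b-/- mutant pools at 6 hpf and 2 at 4 hpf were used. They played no part in choosing genes by wild-type values. They did help to choose genes in the fits that include mutants and in the expression patterns over all 9 libraries. The 2 wild-type pools at 8 hpf served as the next stage, and also entered the wild-type test of differential expression.

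Oikopleura dioica is a larvacean, a free-swimming relative of the sea squirts that keeps a tail and notochord through life. Its embryo hatches as a tadpole-shaped larva with few cells, and organs form in the hours after hatching, before the tail shifts and the skin secretes the first house, a filter-feeding structure of protein and cellulose. Early embryos of animals start with messenger RNA that the mother put into the egg and replace it with transcripts of their own genome. The larvacean genome is compact, and many of its neighbouring genes are transcribed together as operons. Genes appear in the tables as 17212 identifiers that carry no name, and the reference annotation holds none of them, so the levels below belong to genes of unknown function. For the same reason neither Pax37b itself nor markers of the labelled tissue, whole animal, could be checked. The text names at most 2 identifiers higher and 2 lower at 6 hpf, and describes the others by counts and ranges.

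The 6 hpf wild-type libraries were about 5 times as deep as the 4 hpf ones, so depth and stage go together. Total estimated counts were 15236991 and 14043388 at 6 hpf (replicates 1 and 2), against 2803712 and 3136796 at 4 hpf. Levels are given in CPM, counts per 1000000 of the library total. Numbers of expressed genes were taken after every library was thinned at random to 2803712 counts, and a gene was called expressed at 20 thinned counts or more, which is 7.13 CPM. In the bulk of a pooled animal, fewer cells of a type and less RNA per cell cannot be told apart. The mutant libraries were split in the same way, with 13038407 to 15465546 counts at 6 hpf against 2973335 and 3941905 at 4 hpf, so depth and stage cannot be told apart. The labels name no sequencing batch.

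Fewer genes were expressed at 6 hpf than at 4 hpf in wild type. The thinned libraries held 2161 and 3676 expressed genes at 6 hpf, against 5724 and 6502 at 4 hpf, with no overlap. Mutant pools held 2591, 4598 and 3812 at 6 hpf, against 5961 and 4282 at 4 hpf, and these ranges overlapped. Averaged over both genotypes the difference was -2324 genes, and -3194 genes in wild type alone. An exact two-sided permutation test, with stage labels exchanged within genotype over 60 arrangements, gave p = 0.05 and an adjusted p of 0.0667 over 4 library measures, where the smallest possible p is 0.0167. The difference thus did not pass the correction. Leaving out 1 of the 9 libraries in turn gave unadjusted exact permutation p-values of 0.0417 to 0.125, the lowest without mutant replicate 2 of 4 hpf (-2744 genes). Without thinning, 2149 and 3671 genes at 6 hpf against 5724 and 6470 at 4 hpf reached the same CPM.

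**Figure D1:**
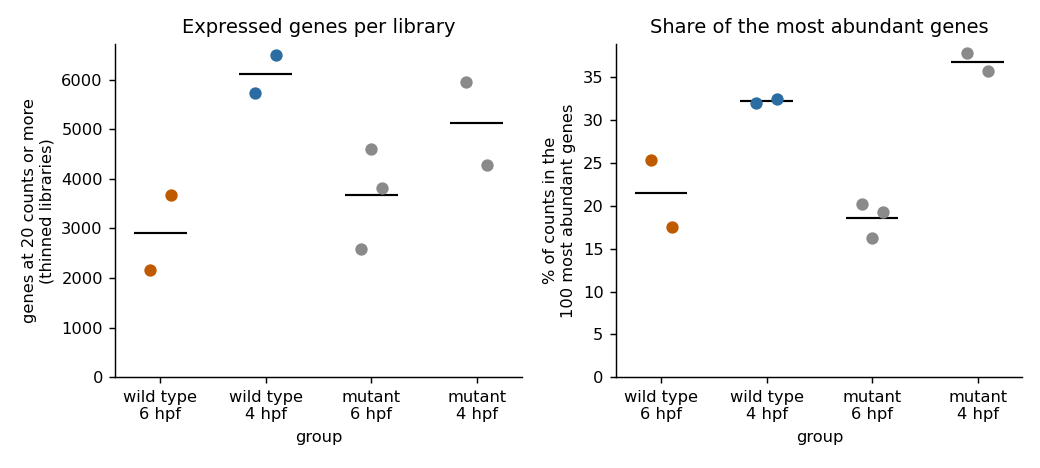
Each point is 1 library. The left axis counts genes with at least 20 thinned counts, the right axis the percent of counts in the 100 most abundant genes of that library, and lines mark group means (n = 2 wild-type libraries per stage, 3 mutant libraries at 6 hpf and 2 at 4 hpf). Both wild-type 6 hpf libraries lie below both 4 hpf libraries in each panel.

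The median CPM of the expressed genes was higher at 6 hpf. It was 220 and 156 CPM in the 6 hpf wild-type libraries, against 59.6 and 49.4 CPM in the 4 hpf ones. In mutants it was 213, 116 and 118 CPM at 6 hpf, against 49.7 and 90.3 CPM at 4 hpf. CPM add up to the same total in every library, so fewer expressed genes give a higher median in part by arithmetic. Genes with only 1 to 19 thinned counts numbered 9041 and 4683 at 6 hpf, against 3263 and 3091 at 4 hpf, and genes without a count 6010 and 8853 against 8225 and 7619. In mutants such genes numbered 2991, 3348 and 5821 at 6 hpf, against 3095 and 5215 at 4 hpf, so a larger group of genes with few counts at 6 hpf was seen in wild type and not in mutants, where the stages overlapped. This difference between genotypes was not tested. The origin of these low counts was not tested.

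The very top of the distribution was flatter at 6 hpf. The 100 most abundant genes of each library took 25.4% and 17.5% of counts at 6 hpf, against 32.0% and 32.5% at 4 hpf. In mutants they took 20.2%, 16.2% and 19.3% at 6 hpf, against 37.8% and 35.7% at 4 hpf, so all 5 libraries at 6 hpf lay below all 4 at 4 hpf. The same exact permutation test gave p = 0.0167, the smallest it can give, and an adjusted p of 0.0333. The mean over genotypes of the difference was -14.48 percentage points, and -9.57 points after the most abundant 4 hpf gene was left out. With any 1 of the 3 mutant 6 hpf libraries left out, p was 0.0556, then the smallest possible. The 1000 most abundant genes did not show this difference and took 89.4% and 68.9% at 6 hpf, against 71.0% and 69.7% at 4 hpf, with overlap. The effective number of genes, computed from the entropy of the counts, was 1145 and 2092 at 6 hpf and 1621 and 1660 at 4 hpf, with overlap (exact permutation p = 0.3, adjusted 0.3).

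Both 6 hpf wild-type pools expressed largely different sets of genes. Of the 4682 genes expressed in either 6 hpf library, 1155 or 24.7% were expressed in both. The 4 hpf libraries shared 4230 of 7996 genes, or 52.9%. Pairs of a 6 hpf and a 4 hpf library shared 23.2% to 32.8%, a range that holds the share of the 6 hpf replicates. The share is limited by the sizes of the sets, 2161 and 3676 genes at 6 hpf. Among the genes that a pair shared, the median difference was 3.06-fold between the 6 hpf replicates, 1.68-fold between the 4 hpf replicates and 3.16-fold to 3.66-fold between libraries of different stages. Mutant pools at 6 hpf shared 26.5% to 34.9% in 3 pairs, and the 2 mutant pools at 4 hpf shared 46.02%. Over all identifiers the log2(CPM + 1) values of the 6 hpf replicates had a Pearson correlation of 0.38 and a Spearman correlation of 0.56, while the 4 hpf replicates had 0.71 and 0.69. The 4 pairs between stages had Pearson correlations of 0.40 to 0.42, above that of the 6 hpf replicates, and Spearman correlations of 0.39 to 0.41, below it. These correlations are across genes of a pair of libraries, which share their genes' lengths and composition, and are given as descriptions.

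**Figure D2:**
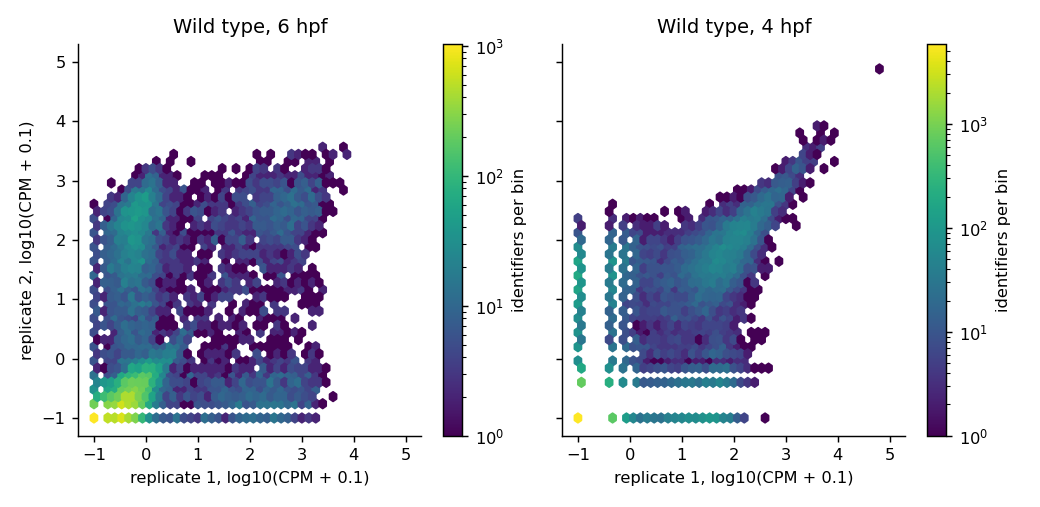
Density of all 17212 identifiers by their level in replicate 1 (horizontal) and replicate 2 (vertical), as log10(CPM + 0.1), for the wild-type pools at 6 hpf (left) and 4 hpf (right); colour counts identifiers per bin on a log scale. At 6 hpf many genes are abundant in a single replicate, and the Pearson correlation of log2(CPM + 1) is 0.38, against 0.71 at 4 hpf.

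The 4 libraries together sorted 9088 expressed genes into patterns. In all, 101 genes (1.11%) were expressed in both 6 hpf libraries and in neither 4 hpf library. The reverse pattern, both 4 hpf libraries and neither at 6 hpf, held 1811 genes (19.9%). Another 861 genes (9.47%) were expressed in all 4 libraries. With the bar at 10 thinned counts the 3 classes held 113, 1940 and 969 genes, and at 50 counts 112, 1498 and 707 genes. Genes expressed in a single library of a stage were common: 3527 genes were expressed in only 1 of the 2 libraries at 6 hpf and 3766 in only 1 of the 2 at 4 hpf.

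**Figure D3:**
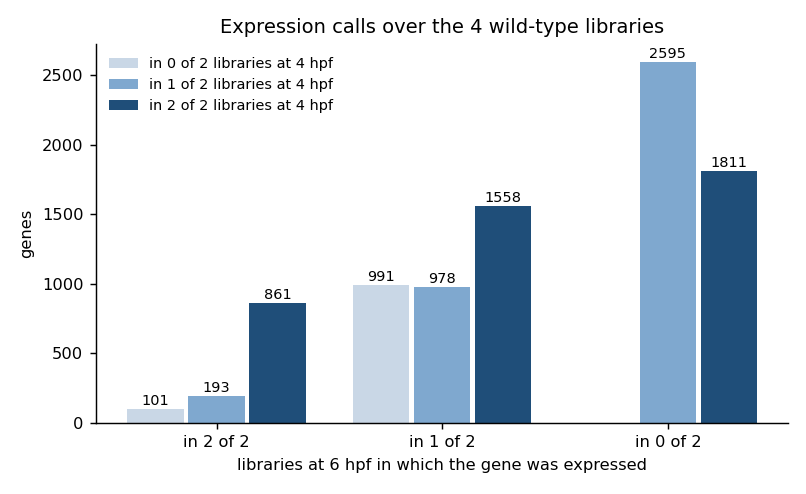
Number of genes (vertical) by the number of 6 hpf wild-type libraries in which they were expressed (horizontal groups) and the number of 4 hpf wild-type libraries (bar shade). Genes in both 6 hpf libraries were mostly also in both 4 hpf libraries (861 genes), and 101 were in neither. Genes expressed in no library (8124) are not drawn.

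Most genes expressed in both 6 hpf libraries were also expressed at 4 hpf. Of these 1155 genes, 1054 (91.3%) were expressed in at least 1 library at 4 hpf and 861 (74.5%) in both. Of the 3527 genes expressed in only 1 library at 6 hpf, 991 were expressed in neither at 4 hpf. Among all 17212 identifiers, 7996 were expressed in at least 1 library at 4 hpf. Of 4230 genes expressed in both 4 hpf libraries, 2419 (57.2%) were expressed in at least 1 library at 6 hpf and 861 (20.4%) in both. These shares have unequal denominators and were given no test.

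Whether a 4 hpf gene was found at 6 hpf went with its level. The 4230 genes expressed in both 4 hpf libraries were divided into 5 classes of 846 by their mean 4 hpf level. In the lowest class, with a median of 24.2 CPM, 15.2% were expressed in replicate 1 and 30.6% in replicate 2 at 6 hpf. In the highest class, with a median of 410 CPM, the shares were 54.5% and 64.8%. Genes missing from both 6 hpf libraries fell steadily over the classes, from 61.3% in the lowest to 22.6% in the highest. The mutant 6 hpf libraries ran from 20.7% to 41.6% in the lowest class and from 56.7% to 79.9% in the highest. None lay below the lower wild-type library in these classes, and 2 of the 3 lay above both. The mutant 4 hpf libraries, which did not define the classes either, expressed 57.8% and 41.3% of the lowest class and 98.1% and 94.6% of the highest. In the highest class every 6 hpf library of either genotype was below both 4 hpf mutant libraries.

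**Figure D4:**
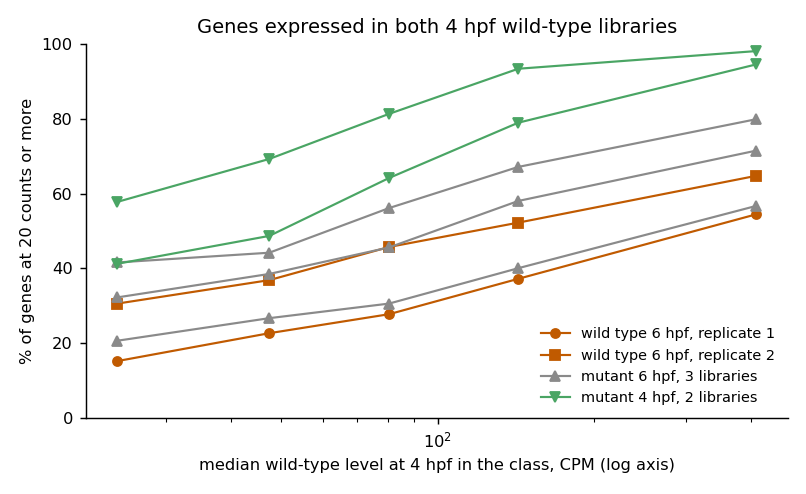
Percent of genes at 20 thinned counts or more (vertical) in libraries that did not define the set, for 5 classes of 846 genes by their wild-type level at 4 hpf (horizontal, median CPM of the class, log axis). Each line is 1 library. In the highest class the wild-type 6 hpf libraries reach 54.5% and 64.8% and the mutant 4 hpf libraries 94.6% and 98.1%.

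The pattern classes were then followed into libraries that had not defined them. Of the 101 genes found in both 6 hpf wild-type libraries and neither at 4 hpf, 33, 51 and 49 were expressed in the mutant 6 hpf libraries, against 24 and 10 in the mutant 4 hpf libraries. Of the 1811 genes with the reverse pattern, 353, 779 and 584 were expressed in mutants at 6 hpf, against 1286 and 999 at 4 hpf. Neither class overlapped between the mutant stages. The mean shares were 43.9% at 6 hpf against 16.8% at 4 hpf for the first class and 31.6% against 63.1% for the second. For both the exact two-sided permutation p was 0.2, the smallest that 3 against 2 libraries can give, and 0.3 after adjustment over 3 classes. The share of all 17212 identifiers that these libraries expressed, the background of the counts, was 15.1% to 26.7% at 6 hpf and 34.6% and 24.9% at 4 hpf. At 8 hpf 50 and 34 of the 101 genes (49.5% and 33.7%) were expressed in the 2 wild-type libraries. Of the 1811 genes 571 and 329 (31.5% and 18.2%) were. Of all identifiers 25.7% and 15.7% were expressed in these libraries, below the share of either class, and these differences were not tested.

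The 861 genes expressed in all 4 libraries allow levels to be compared without on and off states. Between a single 6 hpf and a single 4 hpf library their levels differed by a median of 2.88-fold to 3.48-fold in either direction, over the 4 pairs. Between the 6 hpf replicates the same genes differed by a median of 3.10-fold, within that range, and between the 4 hpf replicates by 1.53-fold. Of these genes 298 (34.6%) lay higher in both 6 hpf libraries than in either 4 hpf library and 157 (18.2%) lower, and for 161 and 90 of them the change of the mean was at least 4-fold. Over the 9334 genes of the wild-type test the share that did not overlap was 15.5% higher and 36.0% lower, so among the 861 the higher side was the more common one. The 861 genes were chosen for being expressed at both stages, which fixes part of this difference. They took 52.1% and 36.3% of all counts at 6 hpf, against 41.6% and 44.8% at 4 hpf.

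Differential expression was tested with edgeR's quasi-likelihood method on the counts of the 6 wild-type libraries. Of 9334 genes, 2 passed the threshold, an adjusted p under 0.05 (0.0214% of those tested). Both were higher at 6 hpf. None passed on the lower side, although 953 genes had an unadjusted p under 0.05 there and 793 on the higher side. The biological coefficient of variation, the spread between replicates relative to the mean, was 1.52. Neither of the 2 genes passed when any 1 of the 4 libraries of 4 and 6 hpf was left out, with edgeR adjusted p of 0.0728 to 0.494. On the same genes limma-voom called 97 (1.04%), 56 higher and 41 lower. DESeq2, run on 16733 genes, called 2716 (16.2%), 2314 higher and 402 lower. Of the 2314 genes that DESeq2 called higher, 942 were expressed in 1 of the 2 libraries at 6 hpf and in none at 4 hpf. In all, 100 were expressed in both at 6 hpf and in none at 4 hpf, and 531 in none of the 4 libraries. Between the stages 1439 of the 2314 did not overlap. Of its 402 lower genes, 381 were expressed in both 4 hpf libraries and in none at 6 hpf, 3 in none of the 4, and 397 did not overlap. Over the 9334 genes of the edgeR test, 15.5% were higher and 36.0% lower without overlap. That share over the 16733 genes is not given here.

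The scaling between stages carried weight here. TMM, the scaling used by edgeR, gave the 4 hpf libraries factors of 1.98 and 1.98 and the 6 hpf libraries 0.65 and 0.76, so the fitted fold changes sit higher, in favour of 6 hpf, than ratios of CPM. The median fitted log2 fold change in edgeR was 0.39 under TMM, 2.49 under RLE size factors and 1.14 under upper-quartile factors. With TMM kept, it was -0.63 in limma-voom on the same 9334 genes, and -0.69 in edgeR on thinned counts (7471 genes). The size of the typical change thus depended on the scaling. Its sign did not change between these scalings, but did with the fitting method and with thinning, which also changed the genes tested. Genes without overlap were 22.2% higher and 26.8% lower when CPM carried TMM factors, against 15.5% and 36.0% on library totals.

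GSOIDG00010519001 rose to 1580 and 936 CPM at 6 hpf, with no count in either 4 hpf library. Its group mean was 1258 ± 456 CPM at 6 hpf (SD, n = 2), and the 0 counts allow up to 0.505 CPM over the 4 hpf pair, so the level was at least 2491-fold higher. The edgeR adjusted p was 0.0159. The mutant pools held 1768, 525 and 65.5 CPM at 6 hpf, against 0 and 0.336 CPM at 4 hpf, the second value being a single count. All 5 pools at 6 hpf were above all 4 at 4 hpf, and the gene passed in the mutants as well (edgeR adjusted p = 0.00757). The mutant call was lost with RLE factors (adjusted p = 0.217), without mutant replicate 1 or 2 of 4 hpf (0.609 and 0.280), without mutant replicate 1 of 6 hpf (0.0695), and without wild-type replicate 1 or 2 of 4 hpf (0.0869 and 0.0898). The call was also lost without the low-count filter (edgeR adjusted p = 0.0514) and with replicate number as a block (0.0518), and DESeq2 gave no p-value. GSOIDG00010519001 was still abundant in wild type at 8 hpf, at 1224 and 2593 CPM.

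GSOIDG00006006001 also rose in wild type. It stood at 1269 and 679 CPM at 6 hpf, with 0 counts in both 4 hpf libraries. The mean was 974 ± 417 CPM at 6 hpf (SD, n = 2), at least 1928-fold higher than the 0.505 CPM that 3 counts make over the 4 hpf pair, and the edgeR adjusted p was 0.0196. In the mutants it stayed near 0, with 1, 0 and 4 counts at 6 hpf and 0 counts in both 4 hpf pools. At 8 hpf it was at 1915 and 1909 CPM in wild type and at 0.966 to 2.18 CPM in mutants. With no count in any 4 hpf pool, the difference between the genotypes' changes gave no usable fit for this gene.

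The identifiers with the smallest p on the lower side did not pass in wild type. GSOIDG00011649001 had 3.94 and 5.98 CPM at 6 hpf, against 3258 and 3626 CPM at 4 hpf, and was 694-fold lower by the means (4.96 ± 1.45 CPM against 3442 ± 260 CPM, SD, n = 2 each). On the log2 scale the fit gave -7.95 (SE 1.95, edgeR adjusted p = 0.267). At 8 hpf the gene stood at 2105 and 2364 CPM. In mutants it was at 469, 671 and 823 CPM at 6 hpf, against 3830 and 4450 CPM at 4 hpf, so every mutant pool at 6 hpf was far above both wild-type pools of that stage. The mutant minus wild-type difference of the changes was 6.45 on the log2 scale (SE 2.48) and did not pass (edgeR adjusted p = 0.333).

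GSOIDG00009602001 was the most abundant transcript of every 4 hpf library. It took 2194 and 1031 CPM at 6 hpf, against 61374 and 71031 CPM at 4 hpf. The means were 1612 ± 822 CPM and 66202 ± 6829 CPM (SD, n = 2 each), 41.1-fold lower at 6 hpf, and the fit gave -3.82 on the log2 scale (SE 1.13, edgeR adjusted p = 0.267). The fitted value was -1.67 with RLE factors, -1.34 with upper-quartile factors and -2.21 without wild-type replicate 2 of 6 hpf. In mutants it held 2184, 2132 and 4714 CPM at 6 hpf, against 77657 and 79751 CPM at 4 hpf, and there the drop passed the test (-3.34 on the log2 scale, SE 0.48, edgeR adjusted p = 4.17e-08). That call was lost with RLE factors (-2.20, adjusted p = 0.377), with DESeq2 (adjusted p = 0.332) and without mutant replicate 2 or 3 of 6 hpf (edgeR adjusted p = 0.207 and 0.0571). The difference between the genotypes' changes was 0.29 (SE 0.70, edgeR adjusted p = 0.928). The level was lower still at 8 hpf, with 187 and 0.402 CPM in wild type.

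**Figure D5:**
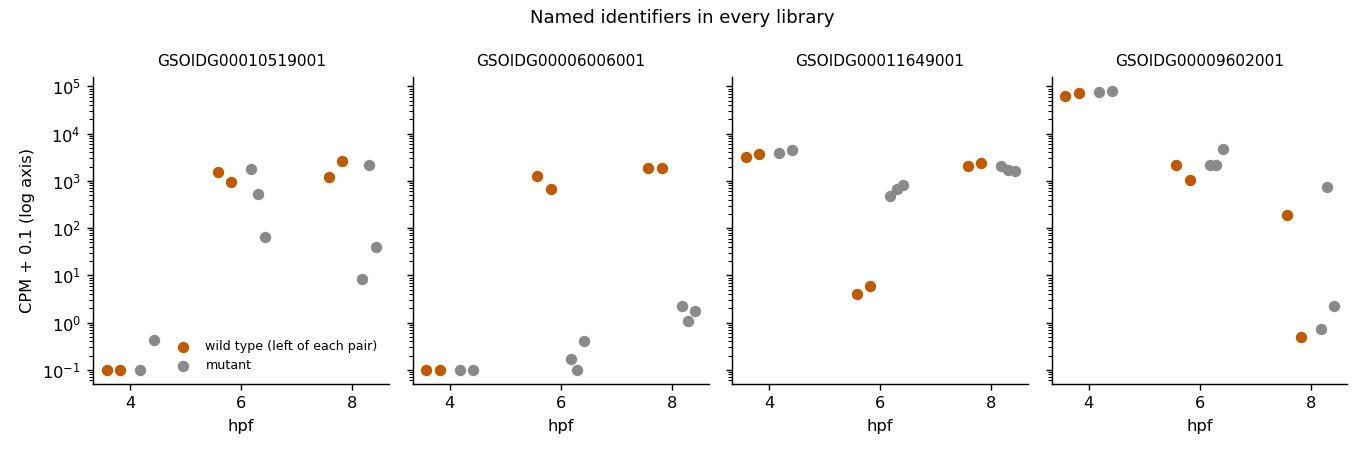
Level of the 4 named identifiers in every library, as CPM + 0.1 on a log axis, by hours post fertilization (horizontal); each point is 1 library. GSOIDG00010519001 is near 0 in all 4 hpf libraries and abundant in all 6 hpf libraries, while GSOIDG00006006001 is abundant at 6 hpf in wild type (679 and 1269 CPM) with at most 4 counts in the mutants.

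The direction seen in wild type was looked up in the mutant pools, which did not enter the choice of genes. Among the 9334 genes, 1450 (15.5%) were higher in both 6 hpf wild-type libraries than in either 4 hpf library and 3358 (36.0%) lower. Of the 1450, 1099 (75.8%) had the higher mutant mean at 6 hpf, where 52.8% of all tested genes did. Of the 3358, 2054 (61.2%) had the lower mutant mean at 6 hpf, where 46.4% of all tested genes did. The shares were highest for wild-type differences over 64-fold, at 81.1% on the higher side and 69.7% on the lower side. In the classes of smaller differences they were 73.8% to 76.5% and 58.2% to 61.9%. This dependence on size was not tested. Complete separation in both genotypes was rarer. The mutant libraries lay apart in the same direction for 368 (25.4%) of the 1450 and 1133 (33.7%) of the 3358, and in the opposite one for 88 (6.07%) and 119 (3.54%). Over all 9334 genes the mutant libraries were apart for 10.4% higher and 21.5% lower. The mutant 4 hpf libraries share the low depth of the wild-type ones, so a part of this agreement that depth could give was not tested. With TMM factors the lower side had a mutant share of 50.8% against a background of 35.1%.

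Fitting all 9 libraries of both genotypes, with genotype as a term, gave more calls for the stage effect. Of 10194 genes tested with edgeR, 46 (0.451%) passed, 37 higher (0.363%) and 9 lower (0.0883%) at 6 hpf. The balance of directions depended on the scaling, with 45 higher and 0 lower under RLE factors, 17 higher and 20 lower on thinned counts, and 43 higher and 23 lower without the low-count filter. The fit includes the wild-type libraries, so it is no separate evidence. It gives 1 stage effect for both genotypes, so a gene that changed mainly in a single genotype can pass. At 6 hpf 1 of the 37 had a mean of 1293 CPM in wild type and 0.758 CPM in mutants. Another had 3.07 CPM in wild type and 613 CPM in mutants. GSOIDG00010519001 (edgeR adjusted p = 5.64e-05) and GSOIDG00009602001 (adjusted p = 1.4e-09) passed, GSOIDG00006006001 (0.0601) and GSOIDG00011649001 (0.122) did not. With RLE factors all 9 lower genes lost their call, GSOIDG00009602001 among them (-2.15 on the log2 scale, edgeR adjusted p = 0.229), and DESeq2 gave it an adjusted p of 0.173. For GSOIDG00010519001 DESeq2 gave no p-value here. GSOIDG00006006001 passed without any 1 of the 3 mutant libraries of 6 hpf (edgeR adjusted p = 0.0182 to 0.0251). For 23 of the 37 and for all 9 of the lower genes, the 5 libraries at 6 hpf did not overlap the 4 at 4 hpf. Over all tested genes there was no overlap for 2.51% on the higher side and 9.55% on the lower. The 46 genes were chosen by a test on these same 9 libraries, so their separation follows in part from the choice and is no support. Leaving out a 4 hpf library reduced the 46 calls to 17 and 24 (wild-type replicates 1 and 2) and to 20 and 26 (mutant replicates 1 and 2).

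Many of the 46 genes were expressed in no library of one stage. They were chosen by a test on these same libraries, so the counts and levels below describe the calls and are no separate evidence. Among all 10194 genes tested, 11 were expressed in all 5 libraries at 6 hpf and in none at 4 hpf, and 238 had the reverse pattern. Of the 37 higher genes, 27 were expressed in none of the 4 libraries at 4 hpf, and 9 had no count in any of them. The same shares over all 10194 genes are not given here, so whether 27 of 37 is unusual cannot be told. At 6 hpf 12 of the 37 were expressed in all 5 libraries, and 5 in all 5 and in none at 4 hpf. Their median level was 814 CPM in wild type at 6 hpf against 0 CPM at 4 hpf, and 158 CPM in wild type at 8 hpf. Of the 9 lower genes, all were expressed in every 4 hpf library and 7 in no 6 hpf library. Their median was 0.230 CPM in wild type at 6 hpf, against 1259 CPM at 4 hpf, and 0.295 CPM at 8 hpf. A minority changed level while expressed throughout: 4 of the higher genes and GSOIDG00009602001 were expressed in all 9 libraries.

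Among all identifiers, 11 genes were expressed in all 5 libraries at 6 hpf and in none at 4 hpf, and 238 genes had the reverse pattern. The 238 had a median of 72.6 and 66.2 CPM in wild type at 4 hpf, and of 0.394 and 0.142 CPM at 6 hpf. At 8 hpf 61 (25.6%) and 32 (13.4%) of them were expressed in the wild-type libraries, near the 25.7% and 15.7% of all identifiers there. The 11 were expressed at 8 hpf in 9 and 6 cases. Of the 11, 5 passed the test over both genotypes as higher, and of the 238, 7 did as lower. Over all 10194 genes tested, 0.363% passed as higher and 0.0883% as lower. Both sets were chosen on the same 9 libraries as the test, so their calls follow in part from the choice and are no support.

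No gene passed a test of whether the change from 4 to 6 hpf differed between genotypes. Of 10194 genes 0 passed in edgeR, with 1288 at an unadjusted p under 0.05, and DESeq2 called 830. Without wild-type replicate 1 or 2 of 6 hpf, 1 gene passed in edgeR. In mutants alone 9 genes passed (0.0883%), 5 higher (0.049%) and 4 lower (0.0392%) at 6 hpf. This count was 1 without either 4 hpf mutant library, 3 without either 4 hpf wild-type library, 5 and 3 without mutant replicates 2 and 3 of 6 hpf, and 33 and 16 without wild-type replicates 1 and 2 of 6 hpf, which enter the shared estimate of spread.

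The most abundant genes differed between the stages about as much as between the 6 hpf replicates. The 100 genes with the highest mean at 6 hpf and the 100 with the highest at 4 hpf had 22 in common. The 4 hpf list took 10.3% and 6.62% of counts at 6 hpf, against 31.7% and 32.1% at 4 hpf, and 80 and 79 of its genes were still expressed at 6 hpf. The 6 hpf list took 22.7% and 12.3% at 6 hpf, against 13.96% and 16.7% at 4 hpf, and 87 and 92 of its genes were already expressed at 4 hpf. Each list was chosen at its own stage, so it is high there by choice. In mutants, which did not choose the lists, the 4 hpf list took 7.53% to 9.20% at 6 hpf, against 34.8% and 31.8% at 4 hpf. The 6 hpf list took less in mutants at 6 hpf than at 4 hpf, 8.93% to 9.62% against 15.7% and 14.7%. Its median gene was higher at 6 hpf, at 541 to 671 CPM against 204 and 201 CPM. The most abundant 4 hpf gene, GSOIDG00009602001, alone took 7.77% and 7.98% of the mutant counts at 4 hpf. How far a single gene sets the share of a list was not tested. The top 100 of the 4 hpf wild-type replicates shared 83 genes, and those of the 6 hpf replicates 18, about as many as a 6 hpf and a 4 hpf library shared (19 to 22).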

How the data were processed

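The deposited tables, 1 for each stage, hold unscaled estimated counts of genes with a column for every pool. The tools named in the submitters' processing notes are kallisto 0.46.0 and DESeq2. Index, annotation and filters were not given in the sources used here. Estimated counts were rounded, and tables were joined by identifier. None of 17212 identifiers matched the reference table of 17178 genes (assembly OKI2018_I68_1.0). kallisto divides reads among similar transcripts, so near-identical copies are uncertain. A wild-type 8 hpf column whose number no title carries was used as an unnumbered replicate. No libraries of a group were repeats of each other (chi-square per degree of freedom at least 77.6).

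The wild-type contrast was fitted with edgeR 4.0.16 (R 4.3.3) on the 6 wild-type libraries of 4, 6 and 8 hpf, 1 mean per stage, with filterByExpr, TMM factors on the totals of the genes kept, a two-sided quasi-likelihood F test and Benjamini-Hochberg adjustment at 0.05. Mutant, combined and interaction contrasts used the 9 libraries of 4 and 6 hpf. Standard errors are the log2 fold change divided by the square root of F. Counts were thinned without replacement. The floor for a gene without counts was 3 counts over the group, which covers counting error only, since reads without molecular identifiers are not independent molecules. Alternatives were DESeq2 1.42.0, limma-voom (limma 3.58.1), other factors, filters, libraries, a replicate block, and leaving out libraries. Identifiers were named by the smallest p in each direction among genes without overlap and at a mean of 5 CPM or more. The comparison, the members and the tests were chosen with earlier results of these data known. Descriptions used Python 3.11.15, numpy 2.4.6, pandas 2.3.3, scipy 1.17.1 and matplotlib 3.10.9.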

Additional observations from a re-analysis of the deposited data

How the results depend on the processing

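The number of genes called in wild type was 2 and changed under all 14 alternatives. It was 12 with RLE factors, 0 with upper-quartile factors, 2716 with DESeq2, 97 with limma-voom, 4 without the low-count filter, 0 at a mean of 5 CPM, 0 with the 4 libraries of 4 and 6 hpf alone, 0 with all 14 libraries, 0 with thinned counts, 0 with a replicate block, and 0 to 1 without 1 library. The cause was not tested. Each of the 2 genes passed in 4 of 14 alternatives and kept its direction in all, and GSOIDG00011649001 and GSOIDG00009602001 passed in 1 each and kept theirs. Mutant calls, 9 in all, became 0 with RLE, 1814 with DESeq2, 15 thinned, 3 with the block and 1 to 33 without 1 library. Over both genotypes DESeq2 called 2583 genes, RLE 45 (0 lower), thinned counts 37 (20 lower), and 17 to 58 passed without 1 library, against 46, with 54 under the block. For the interaction DESeq2 called 830, the block 1, and 0 to 1 passed without 1 library. The deviations of same-numbered pools from their group means correlated at 0.00184 in wild type, so the numbers are not shown to pair the pools.

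The difference in expressed genes ran from -2744 to -1905 without 1 library with unadjusted exact permutation p-values of 0.0417 to 0.125. The difference in the top 100 share ran from -16.43 to -12.52 points, and without a mutant 6 hpf library its p was 0.0556, the smallest that 2 against 2 in each genotype can give. For the top 1000 genes the difference was reversed, at 3.43 points (exact permutation p = 0.7). Shared genes at 10 and 50 counts were 26.1% and 23.0% at 6 hpf and 54.4% and 51.4% at 4 hpf. Genes without overlap were 49.0% with TMM factors and 47.0% when thinned, against 51.5%, and 70.8% to 80.1% without 1 library, as fewer libraries overlap less. The share moving alike in mutants was 63.7% when thinned and 61.1% to 62.8% without 1 library, against 65.6%. The alternatives that leave out libraries from these shares and from the 2 library measures, and the one without the most abundant 4 hpf gene, were added after the data were seen.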

Other observations

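The stage difference of neighbouring identifiers in the table was weakly alike. Over 5628 pairs of consecutive identifiers that both entered the wild-type test, the 6 minus 4 hpf difference of log2(CPM + 1) had a Pearson correlation of 0.0928 and a Spearman correlation of 0.0925. The same pairs had 0.0783 and 0.0672 for the difference between the 6 hpf replicates, and 0.0386 and 0.0425 for that between the 4 hpf replicates. At 10 places apart the Pearson correlations were -0.00915, -0.0131 and 0.0143. Whether the order of identifiers follows the chromosomes was not tested, genes are not independent replicates, and correlations this weak in sparse counts are no finding.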
